A study of Mus musculus with 6 samples.

Results

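Genes of the early oligodendrocyte lineage were described in the cerebral cortex of aging mice. There were 10 such genes of the 55421 in the deposited files, and they were chosen by symbol from what is known of the lineage. They are Pdgfra and Cspg4 of the precursor cells, the transcription factors Olig1, Olig2 and Sox10, the genes Gpr17, Bcas1, Enpp6 and Tcf7l2 of committed and newly formed oligodendrocytes, and Tnr. Cortex was taken from male wild-type C57BL/6J mice, 3 of them 6 months old (mice 10, 11 and 17) and 3 of them 24 months old (mice 2, 4 and 5). All of them were on the same diet and were under isoflurane before death. Each mouse gave 1 library of the whole microdissected cortex, in which all cell types of the tissue were measured together. In such bulk samples, fewer cells of a type and less RNA per cell cannot be told apart.

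Oligodendrocyte precursor cells are the dividing glia that persist in the adult brain and keep making oligodendrocytes, the cells that wrap axons in myelin. A precursor that leaves the cell cycle loses Pdgfra and Cspg4, passes through a short stage marked by Gpr17, Bcas1 and Enpp6, and then turns on the genes of myelin. Olig1, Olig2 and Sox10 are expressed through the whole lineage, and the making of new oligodendrocytes slows in the old brain.

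Between 6 and 24 months, Gpr17 was down-regulated to 0.594-fold and Olig2 was up-regulated 1.35-fold, whereas the other 8 genes were not called. These calls were made with edgeR's quasi-likelihood test at a false discovery rate (FDR) of 10%, with p-values adjusted over all 32905 genes tested by the Benjamini-Hochberg method. At the FDR of 1% used in the study, 0 of the 10 genes were called by this test (0% of all genes). In the same test 3 of the 10 (Gpr17, Olig2 and Tnr) had an unadjusted p under 0.05. So did 10097 of all 32905 genes tested, a share close to that of the 10. The likelihood ratio test, the exact test and DESeq2's Wald test called 1 of the 10 at 1%, Gpr17 each time. These tests called 5.18%, 3.41% and 0.836% of all genes, the last over the 27160 genes to which DESeq2 gave an adjusted p. The 2 genes called at 10% FDR stand against 18.4% of all genes tested (10.0% higher and 8.33% lower), so their number was close to that background. Among the 15761 genes with a mean of at least 1 CPM (a count scaled to the size of its library), to which all 10 belong, 19.7% were called, 2.43% higher and 17.3% lower. All 10 genes passed the count minimum. Their median log2 fold change was -0.0036, with 5 fitted higher and 5 lower, against a median of 0.15 over all genes tested and of -0.14 over those of at least 1 CPM. With library totals in place of TMM scaling 4 of the 10 were called at 10% FDR (Cspg4, Olig2 and Tcf7l2 higher, Gpr17 lower), against 13.5% of all genes (12.5% higher and 0.966% lower).

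The counts summed to between 29495379 and 36494240 per library. CPM were scaled with the TMM method, whose factors were below 1 for the 3 libraries of 6 months and above 1 for those of 24 months. With library totals in place of these factors the median over all genes moved from 0.15 to 0.34, and changes of this size depend on the scaling. More genes had reads at 24 months, and 40208 to 43561 genes had a count there against 33974 to 35651 at 6 months. The 1410 olfactory receptor genes had 0.0215 to 0.0240 CPM per exonic kb at 6 months and 0.0578 to 0.0993 at 24 months. The paper reports sensory perception as a main function of genes activated with age. Whether these reads are expression or background was not tested. The same density over the exons of Olig1 would give 0.0918% to 0.529% of its counts in the 6 libraries, and over those of Gpr17 0.907% to 6.25%. The share was larger in the least expressed genes, at 3.35% to 11.4% for Cspg4 and 2.97% to 26.8% for Enpp6.

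The level of the genes was compared on the TPM scale, which scales within a library and divides by gene length. Olig1 was the highest, with a mean of 87.6 TPM over the 6 libraries, and Bcas1 followed with 26.2 TPM. Olig1 was above Bcas1 in 6 of 6 libraries, and Bcas1 above Tnr in 6 of 6. Tnr (15.5 TPM), Pdgfra (14.6 TPM), Tcf7l2 (13.4 TPM), Sox10 (13.3 TPM) and Olig2 (13.04 TPM) formed a group in which no neighbour was above the next in every library. Gpr17 was lower, at 7.79 TPM, and was below Olig2 in 6 of 6 libraries. Cspg4 (2.76 TPM) and Enpp6 (2.29 TPM) were the lowest, and Cspg4 was above Enpp6 in 5 of 6 libraries. The order was the same with CPM per exonic kb. Both precursor genes were thus present, with the PDGF receptor well above the NG2 proteoglycan per length.

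**Figure D1:**
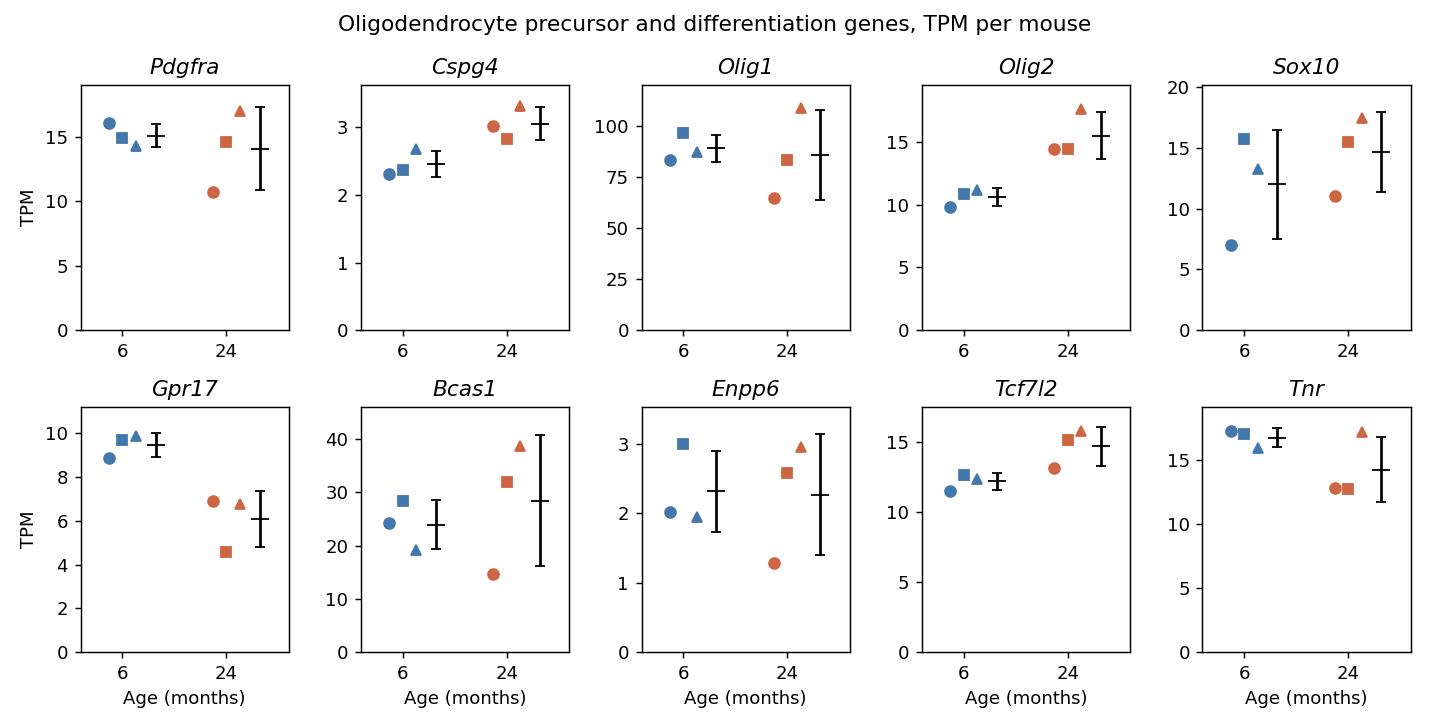
TPM of each of the 10 genes (vertical axis, from 0) in each mouse, by age in months (horizontal axis). Circles, squares and triangles are mice 10, 11 and 17 at 6 months (blue) and mice 2, 4 and 5 at 24 months (orange), and the black bars are the mean ± SD (n = 3). The ages are apart in Cspg4, Olig2, Gpr17 and Tcf7l2, while in the other 6 genes the ages overlap.

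The sequence around the start of transcription is shown for Olig2, Cspg4, Tcf7l2 and Tnr. The ages did not overlap in both TPM and CPM for Olig2, in TPM only for Cspg4 and Tcf7l2, and in CPM only for Tnr. RefSeq promoter windows (GRCm38.p6) ran from 250 bases before to 50 after the start of transcription. They were used for 6 of the 10 genes, with 7 windows in all, because Tcf7l2 has 2. Gpr17, whose ages were apart in both TPM and CPM, is not among these 6 genes. Capitals mark matches on either strand to CANNTG, the E-box that basic helix-loop-helix proteins such as Olig2 bind, and to ACAAAG or ACAATG, cores that Sox and Tcf proteins with an HMG box can bind. A match is a description of letters and not a site of binding.
Olig2, chr16:91225300-91225599, plus strand: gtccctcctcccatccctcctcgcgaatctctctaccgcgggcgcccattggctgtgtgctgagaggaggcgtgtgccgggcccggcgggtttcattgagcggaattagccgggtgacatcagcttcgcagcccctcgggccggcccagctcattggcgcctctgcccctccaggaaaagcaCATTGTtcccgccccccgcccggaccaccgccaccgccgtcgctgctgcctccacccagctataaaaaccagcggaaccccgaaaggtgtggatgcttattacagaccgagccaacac
Cspg4, chr9:56864854-56865153, plus strand: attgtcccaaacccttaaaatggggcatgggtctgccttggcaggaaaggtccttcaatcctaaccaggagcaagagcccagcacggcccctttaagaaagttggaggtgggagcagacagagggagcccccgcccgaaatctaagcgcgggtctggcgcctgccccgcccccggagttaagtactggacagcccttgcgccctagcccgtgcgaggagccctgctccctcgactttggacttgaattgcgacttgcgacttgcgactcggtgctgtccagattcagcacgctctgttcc
Tcf7l2, chr19:55741560-55741859, plus strand: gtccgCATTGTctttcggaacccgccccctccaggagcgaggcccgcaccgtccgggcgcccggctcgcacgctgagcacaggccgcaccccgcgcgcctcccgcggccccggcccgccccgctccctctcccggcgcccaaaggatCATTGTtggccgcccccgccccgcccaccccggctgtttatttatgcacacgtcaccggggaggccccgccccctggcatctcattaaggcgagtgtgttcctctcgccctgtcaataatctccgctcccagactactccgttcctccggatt
Tnr, chr1:159523519-159523818, plus strand: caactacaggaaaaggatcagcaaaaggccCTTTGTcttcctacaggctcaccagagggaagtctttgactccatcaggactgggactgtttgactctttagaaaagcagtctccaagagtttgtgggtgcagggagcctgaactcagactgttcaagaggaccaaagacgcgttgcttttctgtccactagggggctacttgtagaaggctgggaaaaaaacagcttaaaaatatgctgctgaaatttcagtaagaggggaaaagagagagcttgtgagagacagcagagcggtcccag
None of the capitals in these 4 windows is an E-box, a motif that 72.3% of the 32851 mouse promoter windows hold. Olig2 has 1 match to ACAATG, beginning 68 bases before the start, and the first Tcf7l2 window has 2, beginning 245 and 103 bases before it, against 12.6% of all windows with a match. Tnr has 1 match to ACAAAG, 220 bases before the start, against 18.7% of all windows. In the windows that are not printed, Pdgfra has 2 E-boxes, Enpp6 has 1 match to ACAATG and the second Tcf7l2 window has 1 match to ACAAAG. No matches overlapped each other in the printed windows. The GC content was 65.0% for Olig2, 60.0% for Cspg4 and 70.0% for the first Tcf7l2 window, above the median of 52.7% over all windows, and 48.0% for Tnr.

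Pdgfra encodes the receptor for PDGF-AA, the main mitogen of the precursor cells, and lies on chromosome 5 from 75152292 to 75198215 (GRCm38, plus strand, ENSMUSG00000029231.15). Its counts were 1418, 1458 and 1329 in the 6-month-old mice 10, 11 and 17, and 912, 1329 and 1525 in the 24-month-old mice 2, 4 and 5. Mouse 2 was the lowest and the ages overlapped. On the TMM-scaled CPM scale the level was 42.9 ± 2.77 at 6 months and 37.1 ± 8.43 at 24 months (n = 3, SD), and edgeR's quasi-likelihood fit gave a log2 fold change of -0.21 ± 0.16 (SE), adjusted p = 0.380. Without mouse 2 the log2 fold change was -0.04. Parts of its exons, as of those of Olig1, Bcas1 and Tnr, lie opposite antisense genes, and as counting was not stated to use strand, their reads cannot be told apart.

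Cspg4 encodes the NG2 proteoglycan of the precursor surface (chromosome 9 from 56865033 to 56899870, ENSMUSG00000032911.6). It had 244, 276 and 297 counts at 6 months and 307, 307 and 354 counts at 24 months, and the TPM values were 2.32, 2.37 and 2.68 against 3.02, 2.83 and 3.32. In TPM each 24-month-old mouse was above each 6-month-old mouse, but in TMM-scaled CPM the ages overlapped, with 8.33 ± 0.645 and 9.58 ± 0.772 (SD, n = 3). In the quasi-likelihood fit (edgeR) the log2 fold change was 0.20 ± 0.13 (SE), adjusted p = 0.316. With library totals it was 0.39, with an adjusted p of 0.0989 in the same edgeR test. Neither gene of the precursor stage was called with TMM scaling, and their fitted values had opposite signs.

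Pdgfra is also expressed by fibroblasts and Cspg4 by pericytes, so the markers of these cells were measured. The 8 fibroblast markers, with Dcn and Col1a1 among them, summed to 22.4 to 55.0 TPM at 6 months and 24.7 to 67.3 TPM at 24 months, and 0 of 8 were called at 10% FDR by edgeR's quasi-likelihood test, by its other tests or by DESeq2, with 0 at an unadjusted p under 0.05. The smallest p was that of Col6a3, with a log2 fold change of 0.47 (edgeR, adjusted p = 0.209). The 8 mural cell markers summed to 203.4 to 256.3 TPM at 6 months and 165.3 to 337.1 TPM at 24 months. None (0 of 8) was called in any of these tests, 0 had an unadjusted p under 0.05, and Acta2 had the smallest p, with a log2 fold change of 0.72 (edgeR, adjusted p = 0.173). No marker of either list was at 0 counts in any library. Their part in the levels of Pdgfra and Cspg4 was not tested.

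Olig1 and Olig2 are neighbouring genes for basic helix-loop-helix transcription factors on chromosome 16, with 41094 bases between them. Olig2 specifies the lineage and is needed by the precursors, and Olig1 acts later, in maturation. Olig2 (91225457 to 91228677, plus strand, ENSMUSG00000039830.9) had 219, 268 and 262 counts in the 6-month-old mice and 310, 331 and 399 in the 24-month-old mice. Every 24-month-old mouse was above every 6-month-old mouse although the 24-month libraries were smaller. The level was 7.62 ± 0.465 CPM at 6 months and 10.3 ± 1.25 CPM at 24 months (SD, n = 3), and edgeR's quasi-likelihood fit gave a log2 fold change of 0.43 ± 0.14 (SE), adjusted p = 0.0810. The change was higher with library totals, at 0.62 (adjusted p = 0.0541 in the same edgeR test). Leaving out any single mouse kept the log2 fold change between 0.33 and 0.49 but ended the call. The adjusted p-values in edgeR were between 0.119 (without mouse 2) and 0.209 (without mouse 10). Over the whole table, 0 genes were called without mouse 10 or 4, 1 without mouse 11, and 72 higher and 104 lower without mouse 2. Many were still called without mouse 17 (1224 higher and 1252 lower) and without mouse 5 (4364 and 3634). In these 2 fits Olig2 had adjusted p = 0.123 and 0.125 (edgeR).

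Olig1 (91269772 to 91271933, plus strand, ENSMUSG00000046160.6) had 1595, 2038 and 1760 counts at 6 months and 1196, 1642 and 2108 counts at 24 months. The 24-month-old mice lay on both sides of the younger ones, with mouse 2 the lowest of the 6 and mouse 5 the highest. The quasi-likelihood fit (edgeR) gave a log2 fold change of -0.17 ± 0.17 (SE), adjusted p = 0.508, but 0.02 with library totals. Without mouse 5 it was -0.37, with an adjusted p of 0.0846 in edgeR. That fit called many genes at 10% FDR, 4364 higher and 3634 lower of 31275 tested.

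Olig2 and Olig1 can be set against each other within a library, where the scaling between libraries plays no part. The TPM of Olig2 was 0.117, 0.112 and 0.127 of that of Olig1 in the 6-month-old mice, and 0.221, 0.172 and 0.162 of it in the 24-month-old mice 2, 4 and 5. The ages did not overlap, and the mean log2 ratio differed by 0.63 (p = 0.1 in a two-sided exact permutation test, as small as 3 mice against 3 can give, and 0.2 adjusted over 6 ratios). These 6 ratios between pairs of genes were chosen after the values were seen.

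Sox10, the SoxE factor that drives myelin genes and is present in all cells of the lineage (chromosome 15 from 79154908 to 79165240, minus strand, ENSMUSG00000033006.10), was the most variable gene at 6 months. It had 188, 467 and 376 counts in the 6-month-old mice and 286, 428 and 476 counts in the 24-month-old mice. The 6-month-old mouse 10 was the lowest of the 6, and the coefficient of variation of its CPM was 37.0% at 6 months and 22.6% at 24 months. In the quasi-likelihood fit (edgeR) the log2 fold change was 0.18 ± 0.27 (SE), adjusted p = 0.683, and it was -0.09 without mouse 10.

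**Figure D2:**
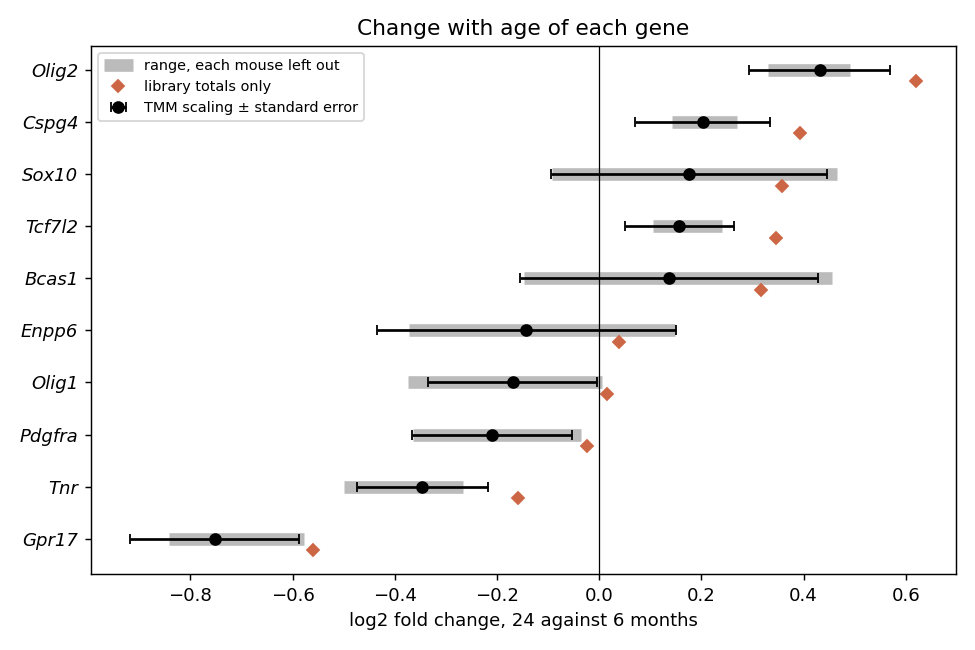
Log2 fold change of each gene at 24 against 6 months (horizontal axis), with black points and bars for the quasi-likelihood fit with TMM scaling ± standard error, grey bars for the range with each mouse left out in turn and orange diamonds for library totals in place of TMM. Gpr17, Tnr and Pdgfra stay below 0 and Olig2, Cspg4 and Tcf7l2 above 0 in all of these, while Olig1 and Enpp6 cross 0 with library totals.

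Gpr17 encodes a G protein-coupled receptor that appears in committed precursors and must be lost before they mature (chromosome 18 from 31942997 to 31949636, minus strand, ENSMUSG00000052229.5). Its counts were 406, 491 and 478 in the 6-month-old mice and 305, 217 and 315 in the 24-month-old mice 2, 4 and 5. All 3 old mice were below all 3 younger mice, and mouse 4 was the lowest. The level fell from 14.0 ± 0.741 to 8.31 ± 1.77 CPM (SD, n = 3), and edgeR's quasi-likelihood fit gave a log2 fold change of -0.75 ± 0.17 (SE), adjusted p = 0.0526. In DESeq2 the log2 fold change was -0.75 with an adjusted p of 0.00875, and with library totals in edgeR it was -0.56 (adjusted p = 0.0807). The call in edgeR ended without mouse 10 (adjusted p = 0.150), 11 (0.158), 2 (0.108) or 4 (0.166), where the log2 fold changes ran from -0.84 to -0.58. In these fits the genes called at 10% FDR over the whole table also went from 6040 to 0 without mouse 10, 1 without mouse 11, 72 higher and 104 lower without mouse 2, and 0 without mouse 4. The exons of Gpr17 share 188 bases with those of Lims2 on the other strand. Lims2 had 291, 335 and 345 counts in the 6-month-old mice and 242, 413 and 412 in the 24-month-old mice, with a log2 fold change of 0.09.

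Bcas1 encodes a protein of newly formed, myelinating oligodendrocytes (chromosome 2 from 170346991 to 170427845, minus strand, ENSMUSG00000013523.13). It had 809, 1044 and 673 counts at 6 months and 474, 1093 and 1307 counts at 24 months. Mouse 2 was the lowest and mice 4 and 5 were the highest of the 6, so that the 24-month-old mice enclosed the 6-month-old ones. The coefficient of variation of its CPM was 43.5% at 24 months, the largest of the 10 genes, and 19.0% at 6 months. In the quasi-likelihood fit (edgeR) the log2 fold change was 0.14 ± 0.29 (SE), adjusted p = 0.776.

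Enpp6, a choline phosphodiesterase used as a marker of oligodendrocytes in the first days after they form (chromosome 8 from 46986887 to 47096762, plus strand, ENSMUSG00000038173.15), was the least expressed gene. It had 114, 187 and 116 counts at 6 months and 70, 150 and 169 counts at 24 months, with the ages overlapping. In the quasi-likelihood fit (edgeR) the log2 fold change was -0.14 ± 0.29 (SE), adjusted p = 0.765. It was 0.04 with library totals, so no direction can be given.

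Tcf7l2 encodes an HMG box factor that works with beta-catenin and is turned on for a short time as oligodendrocytes differentiate (chromosome 19 from 55741820 to 55933654, plus strand, ENSMUSG00000024985.19). It had 892, 1082 and 1006 counts in the 6-month-old mice and 982, 1204 and 1237 in the 24-month-old mice. In TPM these were 11.5, 12.6 and 12.3 against 13.1, 15.1 and 15.8, without overlap, whereas the ages overlapped in TMM-scaled CPM. In the quasi-likelihood fit (edgeR) the log2 fold change was 0.16 ± 0.11 (SE), adjusted p = 0.339, and with library totals it was 0.35 (adjusted p = 0.0795 in edgeR). Tcf7l2 is also abundant in neurons of the thalamus. Of 8 markers of thalamic neurons 1 was called, Slc17a6, a glutamate transporter, which fell with a log2 fold change of -1.03 (edgeR, adjusted p = 0.0825) and was not called with library totals (-0.85, adjusted p = 0.126). The list summed to 139.3 to 201.4 TPM at 6 months and 121.4 to 176.6 TPM at 24 months. Most of this came from Calb2 (46.0 to 102.6 TPM), Ramp3 (25.5 to 53.4 TPM) and Rora (20.3 to 31.4 TPM). The defining marker Gbx2 had only 1 to 5 counts in each library, so the sum says little about it. The part of thalamic neurons in the level of Tcf7l2 was not tested.

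Tnr encodes tenascin-R, a matrix glycoprotein made by precursors, oligodendrocytes and some inhibitory neurons, and found in perineuronal nets and at nodes of Ranvier (chromosome 1 from 159523769 to 159931729, plus strand, ENSMUSG00000015829.13). Its counts were 1961, 2140 and 1903 at 6 months and 1403, 1492 and 1977 at 24 months, with mouse 5 among the younger mice. In TMM-scaled CPM the ages did not overlap, but by less than the rounding, since mouse 17 and mouse 5 were both at 58.1 CPM. The level was 61.2 ± 2.82 at 6 months and 48.2 ± 8.62 at 24 months (SD, n = 3), and in TPM mouse 5 (17.2 TPM) lay within the 6-month-old mice. In the quasi-likelihood fit (edgeR) the log2 fold change was -0.35 ± 0.13 (SE), adjusted p = 0.109, which just missed the threshold. Without mouse 5 it was -0.50 (adjusted p = 0.0325 in edgeR), and with library totals it was -0.16 (adjusted p = 0.388). The fit without mouse 5 called 4364 genes higher and 3634 lower at 10% FDR, of 31275 tested. Of 8 markers of inhibitory interneurons, 0 were called in edgeR's tests or in DESeq2 and 0 had an unadjusted p under 0.05, and the smallest p was that of Sst (log2 fold change -0.21, adjusted p = 0.178 in edgeR). Their sum was 1975 to 2126 TPM at 6 months and 1763 to 2180 TPM at 24 months.

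In TMM-scaled CPM, 3 of the 10 genes had ages that did not overlap (Olig2 higher, Gpr17 and, by less than the rounding, Tnr lower), where 36.3% of all genes tested did (20.0% higher and 16.3% lower) and 37.8% of those of at least 1 CPM, so that the share among the lineage genes was no higher than in the whole table. In TPM there were 4, namely Cspg4, Olig2, Gpr17 and Tcf7l2, against 34.4% of all genes tested and 27.3% of those of at least 1 CPM.

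The genes did not move as 1 block within the libraries. The 11 listed myelin genes of mature oligodendrocytes, such as Mbp and Mog, summed to 1282, 1636 and 1053 TPM in the 6-month-old mice 10, 11 and 17 and to 632.8, 1426 and 1873 TPM in the 24-month-old mice 2, 4 and 5. The amount of this myelin RNA thus differed 2.96-fold between mice 2 and 5 of the same age. Within each age, Bcas1 and Enpp6 had the same order over the mice as the myelin sum, with mouse 17 the lowest and mouse 11 the highest at 6 months, and mouse 2 the lowest and mouse 5 the highest at 24 months. Between mice 5 and 2, Bcas1 differed 2.63-fold, Enpp6 2.30-fold, Olig1 1.68-fold and Pdgfra and Sox10 1.59-fold each. Olig2 differed 1.23-fold, Tcf7l2 1.20-fold and Cspg4 1.1-fold, and Gpr17 was almost equal in the 2 mice, at 0.984-fold. The cause of the different myelin content was not tested.

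**Figure D3:**
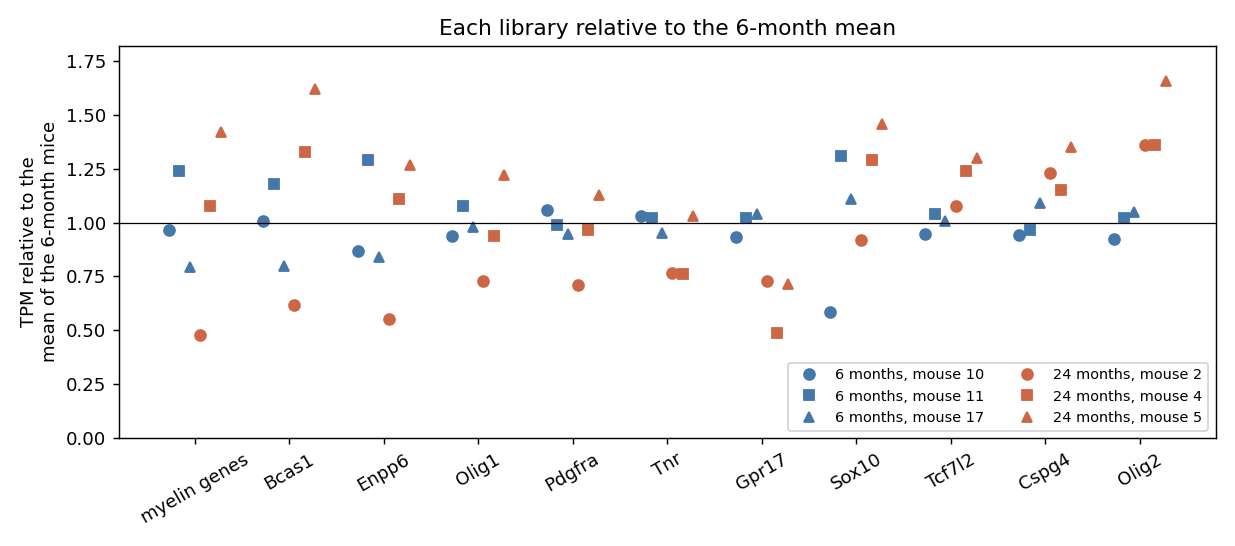
TPM of each gene, and of the sum of the 11 myelin genes, relative to the mean of the 3 mice of 6 months (vertical axis, from 0; the line is at 1), with a point for each mouse. The 24-month-old mouse 2 (orange circle) is at 0.478 for the myelin genes, 0.616 for Bcas1 and 0.553 for Enpp6, but at 1.36 for Olig2, whereas Gpr17 is at 0.485 to 0.727 in all 3 mice of 24 months.

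To see the genes relative to the lineage as a whole, each was divided by Sox10 within its library. Of the 9 ratios 0 separated the ages, and mouse 10, with its low Sox10, had the highest ratio of Gpr17, Olig2 and Pdgfra to it. The log2 ratio of Gpr17 to Sox10 was 0.34, -0.70 and -0.42 in the 6-month-old mice and -0.68, -1.75 and -1.36 in the 24-month-old mice (exact permutation test, two-sided, p = 0.2, adjusted p = 0.6 over the 9 ratios). For Olig2 to Sox10 the difference between the mean log2 ratios was 0.20 (p = 0.6 and adjusted p = 0.9 in the same exact test). With Olig2 as the denominator in place of Sox10, 6 of 9 ratios separated the ages. All of these share Olig2, whose own TPM values did not overlap between the ages.

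Among the pairs chosen after the values were seen, the ratio of Olig2 to Gpr17 was the one with the least spread at 6 months. It was 1.11, 1.12 and 1.12 in the 6-month-old mice and 2.09, 3.13 and 2.60 in the 24-month-old mice, a difference of 1.20 between the mean log2 ratios. Cspg4 was 0.145, 0.159 and 0.188 of Pdgfra at 6 months and 0.283, 0.194 and 0.195 of it at 24 months, a difference of 0.44. Both pairs separated the ages, with p = 0.1 in the two-sided exact permutation test and 0.2 adjusted over the 6 ratios, 0.1 being as small as this design can give. For Olig2 to Gpr17 this outcome was fixed, because in TPM Olig2 was higher and Gpr17 lower without overlap. That ratio therefore adds no evidence beyond the 2 genes. Gpr17 relative to Pdgfra did not separate the ages (0.553, 0.650 and 0.694 against 0.645, 0.315 and 0.399), with p = 0.2 and adjusted p = 0.3 in the same exact test. The ratios of Gpr17 to Enpp6 and to Bcas1, named above as marks of the same short stage, also overlapped between the ages (exact p = 0.4 and 0.3). Over the 6 libraries, however, Pearson's r of log2 CPM of Gpr17 was 0.07 with Enpp6 and -0.20 with Bcas1. Within each age Enpp6 and Bcas1 had the order of the myelin sum. Whether these ratios reflect the stage or the myelin content was not tested.

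**Figure D4:**
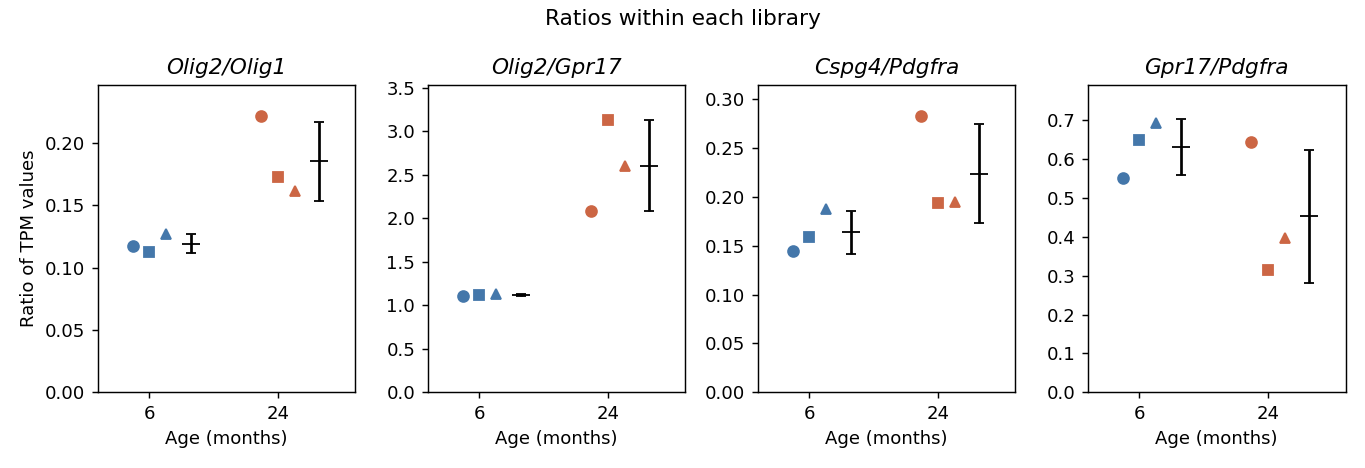
Ratio of the TPM values of a pair of genes within each library (vertical axis, from 0) by age in months, with symbols for the mice as in the plot of TPM per mouse and black bars for the mean ± SD (n = 3). Olig2/Gpr17 is at 1.11 to 1.12 in the 6-month-old mice and at 2.09 to 3.13 in the 24-month-old mice, and Gpr17/Pdgfra overlaps because mouse 2 (0.645) lies among the younger mice.

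Other genes of the same stages were not called. Of 12 other precursor genes (among them Sox6, Lhfpl3, Neu4 and Vcan) 0 were called at 10% FDR in edgeR's quasi-likelihood, likelihood ratio and exact tests or in DESeq2, and 0 had an unadjusted p under 0.05. Their median log2 fold change was -0.06, and Sox6, a SoxD factor that keeps precursors immature, had the smallest p (log2 fold change -0.22, adjusted p = 0.281 in edgeR). Of 12 other genes of committed and newly formed oligodendrocytes (among them Nkx2-2, Itpr2, Fyn and Myrf), 0 were called in the same tests and 1 had an unadjusted p under 0.05, Sema4f (log2 fold change -0.24, adjusted p = 0.163 in edgeR). Of the 11 myelin genes 0 were called and 0 had an unadjusted p under 0.05. Their median was -0.12, and Cldn11, the claudin of the myelin sheath, had the smallest p (log2 fold change -0.43, adjusted p = 0.368 in edgeR).

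Regulators that promote differentiation were down-regulated in 2 of 12 cases and up-regulated in 0, a share close to the 17.3% of genes of at least 1 CPM that were called lower. Sox8, a SoxE factor that overlaps in function with Sox10, had 969, 1302 and 838 counts in the 6-month-old mice and 617, 571 and 701 in the 24-month-old mice. All old mice were below all younger mice, and the fitted log2 fold change was -0.76 ± 0.15 (SE) with adjusted p = 0.0518 in edgeR, close to that of Gpr17. Zfp24, a zinc finger protein that is needed for myelination, fell with a log2 fold change of -0.33 (edgeR, adjusted p = 0.0803), a call that ended with library totals (-0.14, adjusted p = 0.343). Of 11 regulators that hold differentiation back, among them Id2, Id4, Hes5 and Lingo1, 0 were called in the 4 tests, and 1 had an unadjusted p under 0.05. This was Hes1, a Notch target, with a log2 fold change of -0.31 (edgeR, adjusted p = 0.148).

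The partners of Pdgfra, Tcf7l2 and Tnr were read in the same way. Among all genes of at least 1 CPM, 19.7% were called, 17.3% lower and 2.43% higher. Whether the partners exceeded these shares was not tested. Of 6 genes of the PDGF system, 1 fell, Pdgfc, a ligand of the receptor, with 342, 396 and 334 counts in the younger mice and 268, 287 and 214 in the old mice (log2 fold change -0.52 with adjusted p = 0.0646, edgeR quasi-likelihood). With library totals it was not called (-0.33, adjusted p = 0.197). In the beta-catenin pathway 2 of 10 genes fell and 1 rose. Ctnnb1, beta-catenin itself, changed by -0.38 (adjusted p = 0.0539 in edgeR) and Apc, a part of the complex that degrades it, by -0.47 (adjusted p = 0.0924), but with library totals these were -0.19 and -0.28 and were not called (adjusted p = 0.180 and 0.223). Tcf7, a relative of Tcf7l2, rose by 0.62 (adjusted p = 0.0864 in edgeR) and by 0.81 with library totals (adjusted p = 0.0640).

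Around Tnr, 2 of 10 matrix genes fell and 0 rose, a share close to the 17.3% of genes of at least 1 CPM that were called lower. Cntn1, the contactin that binds tenascin-R on the axon, fell by a fitted log2 fold change of -0.53 (edgeR quasi-likelihood, adjusted p = 0.0536). Tnc, the other main tenascin of the brain, had 159, 130 and 203 counts in the younger mice and 75, 79 and 120 in the old mice, with a fitted change of -0.89 on the log2 scale (edgeR, adjusted p = 0.0615). With library totals these were -0.34 and -0.71, both still called (adjusted p = 0.0870 and 0.0943).

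Over the 139 listed genes that are not among the 10, 15 (10.8%) were called at 10% FDR in edgeR, 3 higher and 12 lower. This share was below the 18.4% of all genes tested and the 19.7% of those of at least 1 CPM, in which lower calls also outnumbered higher ones (17.3% and 2.43%). With library totals there were 6, of which 3 were higher. Each of the 15, Sox8 and the partner genes above included, lost its call without mouse 10, 11, 2 or 4. Few genes of the whole table were called at 10% FDR in these fits. There were 0 without mouse 10, 1 without mouse 11, 72 higher and 104 lower without mouse 2, and 0 without mouse 4. The loss was therefore not particular to the listed genes. Markers of other cells of the cortex moved as well. Of 8 neuronal markers 3 fell (Neurod6, Syt1 and Camk2a, none of them called with library totals), and their sum was 6045 to 6660 TPM at 6 months and 4931 to 6124 TPM at 24 months. The astrocyte markers summed to 1299 to 1387 TPM against 1430 to 1530 TPM, with 1 of 8 called, Gfap (log2 fold change 0.69, adjusted p = 0.0738 in edgeR). Of these 8 markers 5 were fitted lower and 3 higher, with a median of -0.06, and without Gfap the sums overlapped (1153 to 1248 TPM against 1167 to 1382 TPM). The microglia markers summed to 804.9 to 817.2 TPM against 870.7 to 979.8 TPM, with Tmem119 higher (0.34, adjusted p = 0.0684) and Csf1r lower (-0.34, adjusted p = 0.0646, but not called with library totals) in edgeR. The sum of the microglia list thus did not overlap between the ages, and that of the astrocyte list was apart with Gfap but overlapped without it. Their part in the change of Olig2 was not tested. Of 8 endothelial markers 0 were called in edgeR's tests or in DESeq2 and 0 had an unadjusted p under 0.05 (smallest p for Slco1a4, log2 fold change -0.17, adjusted p = 0.672 in edgeR).

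The genes with the most similar pattern were sought for Pdgfra, Gpr17 and Enpp6, by Pearson's r of log2 CPM over the 6 libraries among 15760 other genes with a mean of at least 1 CPM. The values are a description, with no test. For Pdgfra they were Afap1, Gask1b and Rnf170 (r = 0.997, 0.996 and 0.995). For Gpr17 they were Gm50010, Slc24a4 and Hcfc1r1 (r = 0.996, 0.995 and 0.993). For Enpp6 they were Frmd8, Snx33 and Cnp (r = 0.992, 0.990 and 0.989), the last of which is an enzyme of myelin. Among the 10 genes themselves, Enpp6 was most like Bcas1 (r = 0.93), Pdgfra most like Olig1 (r = 0.90) and Olig2 most like Cspg4 (r = 0.91), whereas Gpr17 and Olig2 had r = -0.69, over 6 libraries that include both ages.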

How the data were processed

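RNA-seq counts of 6 mouse cortices, 3 per age and each from a separate mouse, were analysed. The authors trimmed single-end reads of 75 bases with Trim Galore 0.6.4, mapped them to GRCm38 with STAR 2.7.3a and counted them on exons, grouped by gene, with featureCounts (Subread 2.0.0), allowing reads with up to 10 positions. The stated options share such reads out as fractions, but all deposited counts were integers, so these differ from the stated counting in a way that is not explained in the sources used here. They entered the tests unchanged. The deposited TPM values, which the authors computed from counts and exonic length, served for levels and ratios within a library. Counting was not stated to use strand. Identifiers and symbols were joined by row position, which the pattern of zeros matched in every library, and 54673 of the identifiers were in the GENCODE vM21 annotation of GRCm38 used for positions.

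Differential expression was computed with edgeR 4.0.16 (R 4.3.3), on genes whose counts summed to 10 or more, by TMM scaling and a quasi-likelihood test with age as the only term. Standard errors are the log2 fold change divided by the square root of F. Alternatives were edgeR's likelihood ratio and exact tests, DESeq2 1.42.0, other scalings and filters, limma 3.58.1 on log2(TPM + 1) and log2(TPM + 0.1), and each mouse left out in turn. The genes and lists were chosen with earlier results of these data known, and 1 gene of the myelin list is not reported here and was left out of its sums and counts. From each list the called genes with the smallest p (at most 4), or else the single gene with the smallest p, are named, beside markers that define a list and genes given as examples of its content. On simulated counts for 31676 genes with 200 changed, the quasi-likelihood test recovered 87.5% of the changed genes at 10% FDR. Recovery of changes as small as those fitted for the lineage genes was not tested. Other computations used Python 3.11.15, pandas 2.3.3, numpy 2.4.6 and scipy 1.17.1.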

Additional observations from a re-analysis of the deposited data

How the results depend on the processing

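No paired analysis was possible because the mouse numbers of the 2 ages have none in common. At 10% FDR the 2 calls (Gpr17 and Olig2) were 4 with library totals, which added Cspg4 and Tcf7l2, 3 with TMM factors over genes of at least 1 CPM, which added Tcf7l2 (adjusted p = 0.0978 in edgeR, with 3617 genes called higher and 457 lower in the whole table), and 0 in each of the 3 limma fits on TPM. The limma fits called few genes of the whole table. On log2(TPM + 1) they called 62 higher and 9 lower of 43768, and without a filter 52 and 7 of 49160. On log2(TPM + 0.1) it was 481 higher and 57 lower of 43768. The calls among the 10 genes were also 0 after reads at the per-length density of olfactory receptor genes were taken off every gene in each library, an alternative chosen after the data were seen, under which 25 genes were called higher and 3 lower in the whole table. With 1 mouse left out there were 0 to 3 of them, with fewer samples in each fit. The 3 came without mouse 5, where 4364 genes were called higher and 3634 lower in the whole table. For the other settings the cause was not tested. At 1% FDR the 0 calls became 1 in the likelihood ratio test, the exact test and DESeq2, and stayed at 0 with each mouse left out. The 15 other listed genes called at 10% FDR were 6 with library totals, 6 with TMM factors computed over genes of at least 1 CPM (chosen after the data were seen), 2 with filterByExpr, 1 or 0 on TPM with limma, 0 after the density of olfactory receptor reads was taken off, and 0 to 29 with each mouse left out (29 without mouse 5). Gpr17 was lower and Olig2 higher in all 18 alternatives, from -0.84 to -0.56 and from 0.33 to 0.62 on the log2 scale, and they were called at 10% FDR in 10 and 8 of them, with adjusted p-values of 0.00505 to 0.257 and 0.0541 to 0.222. A constant sign was not particular to these 2 genes, since Pdgfra and Tnr were lower and Cspg4 and Tcf7l2 higher in all 18.

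Genes within their error changed sign. With each mouse left out the ranges were -0.3748 to 0.0054 for Olig1, -0.0923 to 0.4663 for Sox10, -0.1476 to 0.4558 for Bcas1 and -0.3719 to 0.1477 for Enpp6. Olig1 was at 0.0151 with library totals and 0.0054 without the 24-month-old mouse 2, Sox10 at -0.0923 without the 6-month-old mouse 10, and Bcas1 at -0.0001 without mouse 17 and -0.1476 without mouse 5. Enpp6 was at 0.0388 with library totals, 0.0028 with TMM over genes of at least 1 CPM, 0.1206 without mouse 11 and 0.1477 without mouse 2. The ratios to Sox10 that separated the ages were 0 of 9, but 6 with Olig2 as the denominator and 0 to 4 with each mouse left out. Enpp6 had the fewest counts of the 10 genes, 70 to 187 per library.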

Other observations

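A few listed genes were lower in the 6-month-old mouse 10 than in any other mouse, and they were picked after the values were seen. Notum, Mycl, Rras2 and Tmem163 were also the lowest in mouse 10, beside those described here. C1ql1, a gene of precursor cells, had 1.23 TPM in mouse 10 against 7.38 to 23.8 TPM in the other 5 mice. Those mice also differed among themselves, with 7.38 and 7.9 TPM in mice 11 and 5 and 18.7 to 23.8 TPM in mice 17, 2 and 4. Id4, an inhibitor of differentiation that astrocytes also express, had 28.3 TPM against 94.1 to 187 TPM. Cspg5, a proteoglycan of precursors and astrocytes, had 41.9 TPM against 66.1 to 178 TPM, and Sox10 had 6.98 TPM against 11.0 to 17.4 TPM. In the same library Pdgfra was at 16.0 TPM, within the 10.7 to 17.0 TPM of the other mice, and the myelin genes summed to 1282 TPM, between mice 17 and 11 of the same age.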
